A study of Mus musculus with 9 samples.

Results

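Elastic fibres pair a core of crosslinked elastin with a sheath of microfibrils, and they let connective tissue recoil after stretch. Fibrillins build the microfibrils, microfibril-associated glycoproteins decorate them, and fibulins link them to elastin and to basement membranes. Microfibrils without elastin also form the ciliary zonule, which suspends the lens, and elastic fibres run among the collagen fibrils of tendon.

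The genes described here are Eln (elastin), Mfap2 (a microfibril-associated glycoprotein), Fbn1 (a fibrillin), and Fbln1 and Fbln2 (fibulins). Members were the probe sets that the platform annotation gives to 1 of these 5 genes alone, 8 of the 12488 probe sets in the table, and covered 4 of the 8251 genes that have such a probe set. Fbln1 had 4 of them, Eln 2, and Mfap2 and Fbln2 1 each. On the RefSeq annotation of GRCm38.p6, Eln lies at chr5:134702595-134747368, Mfap2 at chr4:141010424-141015976, Fbln1 at chr15:85205949-85286294 and Fbln2 at chr6:91212460-91272540. Fbn1 had 0 probe sets and was not analysed here, so the fibrillin core of the microfibril is not covered by the values below.

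RNA of mouse tissues was hybridised as biotin-labelled target to 9 oligonucleotide arrays. There were 3 arrays of adult cornea (7 weeks of age), 2 of cornea at postnatal day 10 (P10), 2 of adult lens and 2 of the flexor digitorum longus tendon of adults (both 7 weeks). The labels used here name no genotype, strain or treatment for any group. Corneas were cut free of the limbus and scraped, which left some epithelium, while lenses and tendons were pooled for extraction. Each replicate was a separate RNA preparation, and that spread is what the p-values measure. The cornea arrays had served an earlier study, so a batch cannot be told apart from the tissue where cornea is set against lens or tendon.

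Values are the deposited expression indices in arbitrary units, on a scale where the median of an array lay between 67.6 and 88. An index depends on the probes, so a difference between probe sets within an array is no ratio of transcript levels. Such differences are given below only to compare their size between arrays, and marker sums only to compare arrays. Krt12, the corneal epithelial keratin, was at 6440 to 8290 on the 5 cornea arrays, 1758 and 1603 in lens, and 401 and 257 in tendon. Cryaa, a lens crystallin, was at 6405 and 7231 in lens, but also at 1280 to 3082 on the cornea arrays, against 12.2 and 31.7 in tendon. The 7 measured lens markers summed to 4715 to 8573 on the cornea arrays and to 531 and 578 in tendon. The cornea sums were mostly Cryaa, Crybb2, Cryba1 and Crygs, so transcripts of these crystallins were measured in the corneas. Mip read 27.2 to 76.5 in the corneas, against 1918 and 1800 in lens. Bfsp1 read 61.5 to 147, against 3731 and 3300. Cryab was lower in the corneas than in tendon. Fmod, a proteoglycan of tendon, was at 5455 and 6342 on the tendon arrays, against 45.2 to 588 on the others. The 8 skeletal muscle markers summed to 34082 and 40274 on the tendon arrays, against 153 to 512 on the others, and the 4 measured adipocyte markers to 4623 and 4638, against 146 to 240. Sums of endothelial markers (1399 and 1435, against 712 to 984) and leukocyte markers (1220 and 1307, against 525 to 760) were also highest in tendon. Not every marker was, since Pecam1, Tie1, Kdr, Eng, Ptprc, Cd68 and Cd52 did not stand above all other arrays in tendon. Cdh5, of endothelium, read 110 and 127 in tendon, 38.2 and 54.4 in P10 cornea, and 7.37 or less in adult cornea and lens. The part of these markers in the values of cornea and tendon was not tested. Adult cornea replicate 1 had a 3'/5' ratio of the Gapdh control of 2.25, against 0.831 to 1.04 on the other arrays.

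By its probe set 92836_at, elastin was high in tendon and P10 cornea and low in adult cornea and lens, and so was fibulin-2, although its means put adult cornea above lens and those of elastin put lens above adult cornea. Mfap2 was low in adult cornea alone and close to 250 or above on all other arrays. Fibulin-1 gave different orders with its different probe sets, none of which passed the test between the ages of cornea. In bulk RNA, fewer cells of a type and less RNA per cell cannot be told apart.

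Promoter windows from RefSeq (GRCm38.p6) were held for Mfap2, Fbln2, Fbln1 and Fbn1, but not for Eln. Mfap2 and Fbln2 were called lower in adult than in P10 cornea, Fbln1 was not called, and Fbn1 was not analysed. Windows of Mfap2, Fbln2 and Fbln1 are shown for comparison, each as the 250 bases before an annotated start, 5′ to 3′ on the + strand. Capitals mark a GC box (GGGCGG on either strand).

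Mfap2, chr4:141010431-141010680: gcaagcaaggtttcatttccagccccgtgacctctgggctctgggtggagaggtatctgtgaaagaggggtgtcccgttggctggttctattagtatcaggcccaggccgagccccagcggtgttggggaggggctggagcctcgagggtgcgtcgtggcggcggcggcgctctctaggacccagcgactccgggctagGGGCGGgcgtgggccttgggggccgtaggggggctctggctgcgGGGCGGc
Fbln2, chr6:91212514-91212763: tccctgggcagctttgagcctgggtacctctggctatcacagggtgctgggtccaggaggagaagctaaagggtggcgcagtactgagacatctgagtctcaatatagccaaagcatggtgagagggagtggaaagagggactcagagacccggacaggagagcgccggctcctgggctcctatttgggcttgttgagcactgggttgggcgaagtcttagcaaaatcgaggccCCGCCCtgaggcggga
Fbln1, chr15:85205699-85205948: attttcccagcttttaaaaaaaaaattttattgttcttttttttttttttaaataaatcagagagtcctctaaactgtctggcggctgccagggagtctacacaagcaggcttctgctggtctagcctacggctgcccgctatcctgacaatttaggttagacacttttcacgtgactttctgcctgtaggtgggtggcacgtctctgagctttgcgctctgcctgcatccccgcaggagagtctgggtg

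The Mfap2 window had 2 GC boxes, the Fbln2 window 1 and the Fbln1 window 0. Across 32851 windows of the same length, 32.7% held at least 1. The table has a further start for Mfap2, whose window had 0 GC boxes, and one for Fbln1, whose window had 1, so the count depends on the start taken. The Mfap2 and Fbln2 windows shown lie inside their genes as annotated, past the first base, whereas the Fbln1 window shown lies before its gene. The Mfap2 window that ends just before its gene had 0 GC boxes, as did that Fbln1 window. The TATA box letters TATAAA, searched on both strands, were in none of these windows and in 12.4% of all windows. G and C made up 68.8% of the Mfap2 window, 58.8% of the Fbln2 window and 46.4% of the Fbln1 window, against a median of 52.4%. In the windows of the other starts the share was 51.2% for Mfap2 and 62.4% for Fbln1, which turns their order round. A match in the letters is a description and not a binding site.

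Of the 2 elastin probe sets, 92836_at had the higher mean. It read 38.3, 34.6 and 52.7 in adult cornea, 237 and 268 in P10 cornea, 55.9 and 47.2 in lens, and 339 and 416 in tendon. Every P10 and tendon array lay above every adult cornea and lens array. All adult cornea and lens values were below the median of their arrays, so the probe set met the filter (at least the array median on 2 arrays) through P10 cornea and tendon, on 4 of the 9 arrays. The order of the means was tendon (378 ± 54.6), P10 cornea (253 ± 22.4), lens (51.6 ± 6.17) and adult cornea (41.9 ± 9.57; SD, n = 2, 2, 2 and 3).

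**Figure D1:**
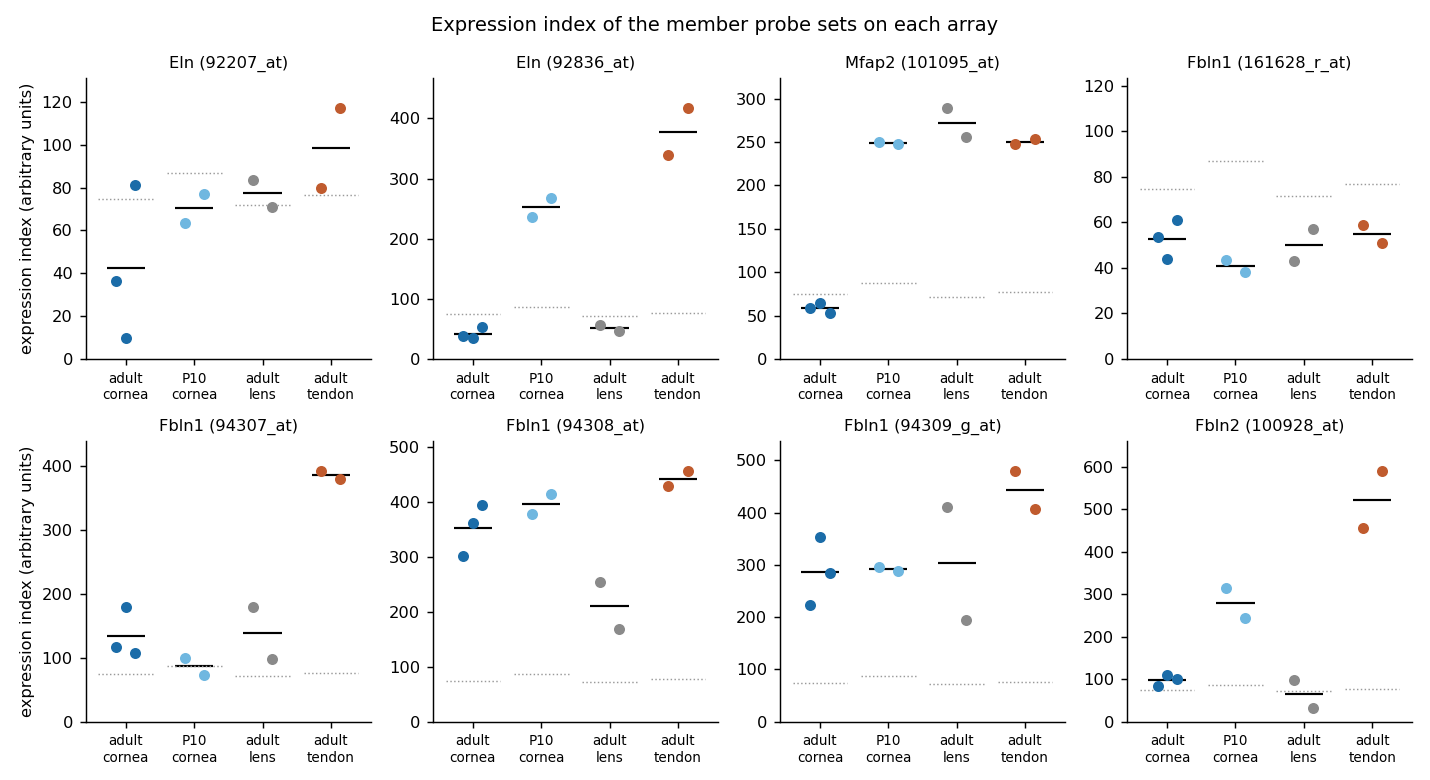
Expression index (arbitrary units, axes from 0) of the 8 member probe sets on each of the 9 arrays. Points are arrays, solid bars are group means and dotted lines are the mean of the array medians of that group. Mfap2 lies at 52.6 to 64.7 in adult cornea and at 247 or above elsewhere.

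Differences were tested in limma on log2(index + 16), with Benjamini-Hochberg adjustment over all 8154 tested probe sets. Such differences understate those of low indices. Eln (92836_at) fell in adult against P10 cornea, by 2.22 on the log2 scale (SE 0.20, 95% interval -2.67 to -1.77, limma adjusted p = 0.000343), or 4.67-fold. It was 6.83-fold lower in adult cornea than in tendon (log2 -2.77 ± 0.20 SE, limma adjusted p = 3.43e-06). The fold was 3.98 for P10 cornea over lens (limma adjusted p = 5.72e-05), and lens was 5.81-fold below tendon (limma adjusted p = 8.01e-06). The neighbours in the order were not separated. Adult cornea differed from lens by a log2 of -0.23 (95% interval -0.68 to 0.22, limma adjusted p = 0.359) and P10 cornea from tendon by -0.55 (95% interval -1.04 to -0.06, limma adjusted p = 0.0956). The difference between P10 cornea and tendon passed in 4 of 19 alternatives, including the fit of only these groups (limma adjusted p = 0.0288).

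The other elastin probe set, 92207_at, did not show this pattern. It read 36.3, 9.77 and 81.2 in adult cornea, 63.5 and 77.2 in P10 cornea, 83.4 and 71.1 in lens, and 80.0 and 117 in tendon. Adult cornea alone spanned most of this range, and the groups overlapped in 5 of the 6 comparisons. None of them passed in limma (adjusted p = 0.0683 to 0.858, with 1 of 6 at an unadjusted p under 0.05). Without adult cornea replicate 3, the highest of that group, this probe set was lower in adult cornea than in lens (limma adjusted p = 0.0065) and tendon (limma adjusted p = 0.00344). Within an array, 92207_at stood 1.61 to 1.89 log2 units below 92836_at in P10 cornea and tendon, and between 0.97 below and 0.50 above it in adult cornea and lens. The elastin pattern above was thus that of 92836_at alone.

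Mfap2 encodes a small glycoprotein that binds fibrillin along the microfibril. Its probe set (101095_at) read 59.1, 64.7 and 52.6 in adult cornea, 251 and 248 in P10 cornea, 289 and 256 in lens, and 247 and 253 in tendon. The 3 adult corneas stood apart from the 6 other arrays, with no overlap, and were the arrays on which Mfap2 lay below the array median. Mfap2 fell in adult cornea against each other group, with log2 differences of -1.83 from P10 cornea (SE 0.17, limma adjusted p = 0.000344), -1.95 from lens (SE 0.17, limma adjusted p = 1.01e-05) and -1.84 from tendon (SE 0.17, limma adjusted p = 2.07e-05). The folds were 3.55, 3.86 and 3.57. These 3 comparisons share the adult cornea arrays.

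The other groups could not be ordered by Mfap2. P10 cornea differed from tendon by a log2 of -0.01 (95% interval -0.43 to 0.42), P10 cornea from lens by -0.12 (95% interval -0.54 to 0.30) and lens from tendon by 0.11 (95% interval -0.31 to 0.53; limma adjusted p = 0.619 to 0.985 for the 3). These intervals leave room for differences of up to about 0.54 in either direction. The lens arrays read 15.8 and 7.69 for Kera, a keratocyte proteoglycan that was at 144 to 441 in the corneas and at 213 and 236 in tendon. Lum, Dcn and Col5a1 of the stromal list were also lowest in lens. Lum read 35.2 and 28.5 there, against 595 to 2087 in the corneas and 631 and 668 in tendon. Aldh3a1 and Tkt were lower in lens than in the corneas but lowest in tendon, and Cd34 overlapped between lens and adult cornea. Ptgds did not follow Kera, and read 1052 and 502 in lens, against 303 to 459 in adult cornea and 94.0 and 129 in tendon.

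Fbln2 encodes fibulin-2, which binds fibrillin and basement membrane proteins. It read 85.1, 109 and 99.3 in adult cornea, 314 and 245 in P10 cornea, 97.0 and 33.3 in lens, and 455 and 589 in tendon. The tendon arrays were highest, the P10 corneas lay between, and adult cornea and lens overlapped. Fbln2 was 4.71-fold lower in adult cornea than in tendon (log2 -2.24 ± 0.32 SE, limma adjusted p = 0.000368), 3.93-fold higher in P10 cornea than in lens (log2 1.97 ± 0.35 SE, limma adjusted p = 0.00113) and 7.15-fold lower in lens than in tendon (log2 -2.84 ± 0.35 SE, limma adjusted p = 8.43e-05).

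Between the ages the fall of Fbln2 was less certain. It fell 2.59-fold in adult against P10 cornea (log2 -1.37 ± 0.32 SE, 95% interval -2.08 to -0.66, limma adjusted p = 0.0391), and the groups did not overlap. The call was lost in 10 of 19 alternatives (limma adjusted p up to 0.328). These were the fits without any one of the 5 cornea and 2 tendon arrays, a pseudocount of 1, median centring and the replicate block. All 19 kept the direction. P10 cornea and tendon differed by -0.87 ± 0.35 SE (limma adjusted p = 0.0944, under 0.05 in 6 of 19 alternatives), and adult cornea and lens by 0.60 ± 0.32 SE (limma adjusted p = 0.138).

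**Figure D2:**
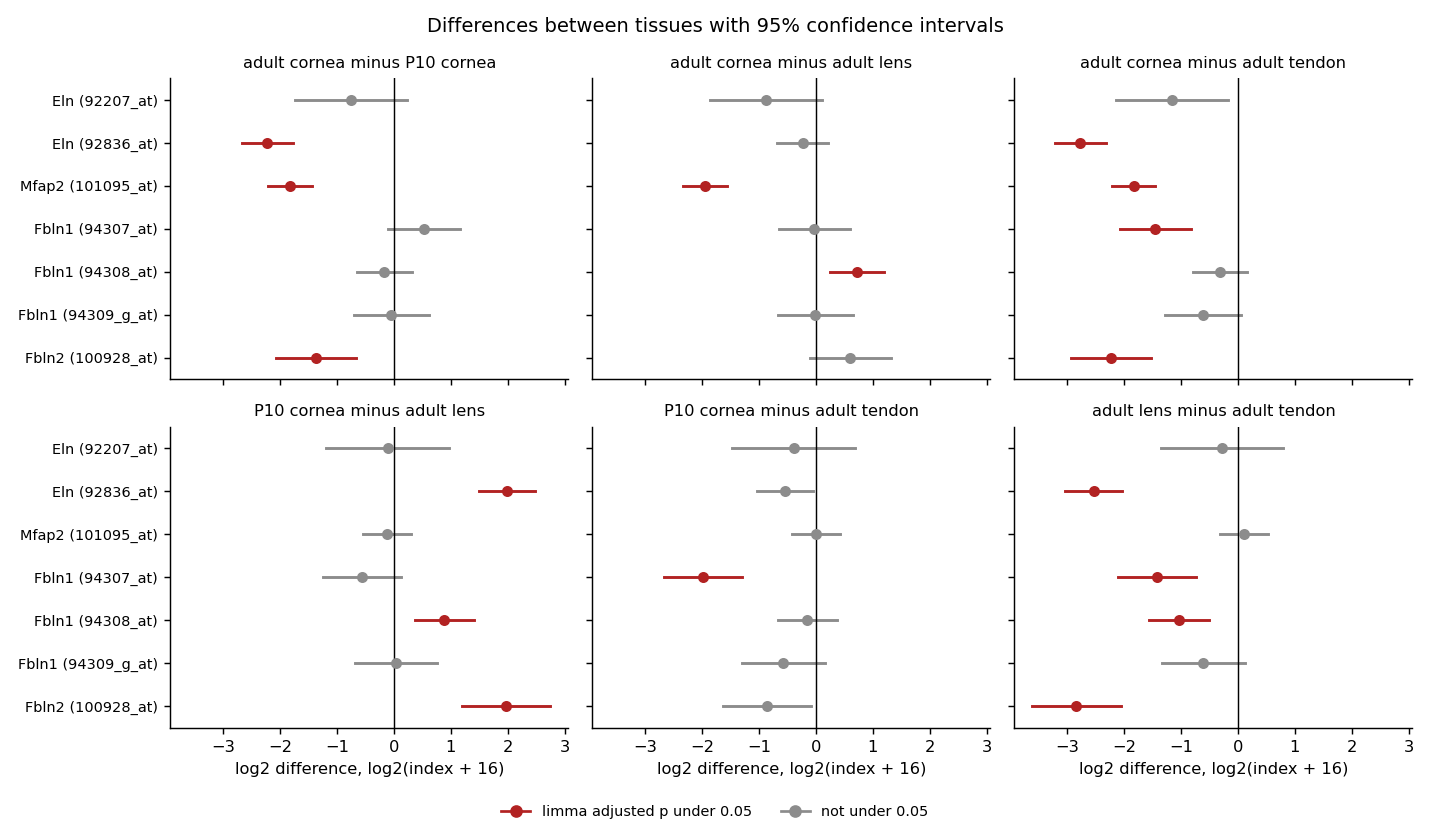
Differences on the log2(index + 16) scale for the 7 tested member probe sets in the 6 comparisons. Points are limma estimates, lines are 95% confidence intervals, and red marks an adjusted p under 0.05. Mfap2 has its 3 red points in the 3 comparisons of adult cornea, at -1.83, -1.95 and -1.84.

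Fbln1 encodes fibulin-1, a protein of basement membranes and elastic fibres, and is spliced into forms that differ at the end of the protein. Probe set 94307_at read 117, 179 and 107 in adult cornea, 100.4 and 73.6 in P10 cornea, 180 and 98.9 in lens, and 392 and 380 in tendon. Tendon stood above the other tissues without overlap, by 2.73-fold over adult cornea (limma adjusted p = 0.00259), 3.94-fold over P10 cornea (limma adjusted p = 0.00102) and 2.68-fold over lens (limma adjusted p = 0.00344). These calls held in all 19 alternatives. Among cornea and lens none of the differences passed (limma adjusted p = 0.157 to 0.942).

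Probe set 94308_at set the lens apart instead. It read 302, 362 and 394 in adult cornea, 378 and 415 in P10 cornea, 253 and 168 in lens, and 428 and 456 in tendon. Lens lay below every other array. The index was 1.65-fold higher in adult cornea than in lens (limma adjusted p = 0.018), 1.85-fold higher in P10 cornea than in lens (limma adjusted p = 0.0105) and 2.05-fold lower in lens than in tendon (limma adjusted p = 0.0044). The first of these was lost in 3 of 19 alternatives and the second in 2. Without lens replicate 2, the lower of the pair, the adjusted p was 0.173 for adult cornea and 0.0851 for P10 cornea (limma). Cornea and tendon differed by a log2 of -0.32 (95% interval -0.80 to 0.16) for the adult and -0.15 (95% interval -0.68 to 0.37) for P10.

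Probe set 94309_g_at was designed from the same sequence record as 94308_at, so the pair is not independent. It read 223, 353 and 285 in adult cornea, 295 and 288 in P10 cornea, 410 and 195 in lens, and 479 and 407 in tendon. The lens preparations lay far apart, at 303 ± 152 (SD, n = 2), and none of the 6 comparisons passed (limma adjusted p = 0.138 to 0.983, with 0 at an unadjusted p under 0.05). The fourth Fbln1 probe set, 161628_r_at, read 38.3 to 61.1 on the 9 arrays, below the array median on each, and was not tested.

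None of the tested Fbln1 probe sets was called between the ages, and the groups overlapped in 94308_at and 94309_g_at but not in 94307_at. Adult cornea stood above P10 cornea by 0.53 (95% interval -0.10 to 1.15) in 94307_at, and differed from it by -0.17 (95% interval -0.65 to 0.31) in 94308_at and by -0.04 (95% interval -0.71 to 0.62) in 94309_g_at (limma adjusted p = 0.419, 0.811 and 0.98). Within an array, 94307_at stood below 94308_at by 0.95 to 1.74 log2 units in adult cornea and by 1.76 and 2.27 in P10 cornea. It stood below by 0.46 and 0.68 in lens and by 0.12 and 0.25 in tendon. These ranges did not overlap between the tissues. Whether the probe sets measure different splice forms was not tested.

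**Figure D3:**
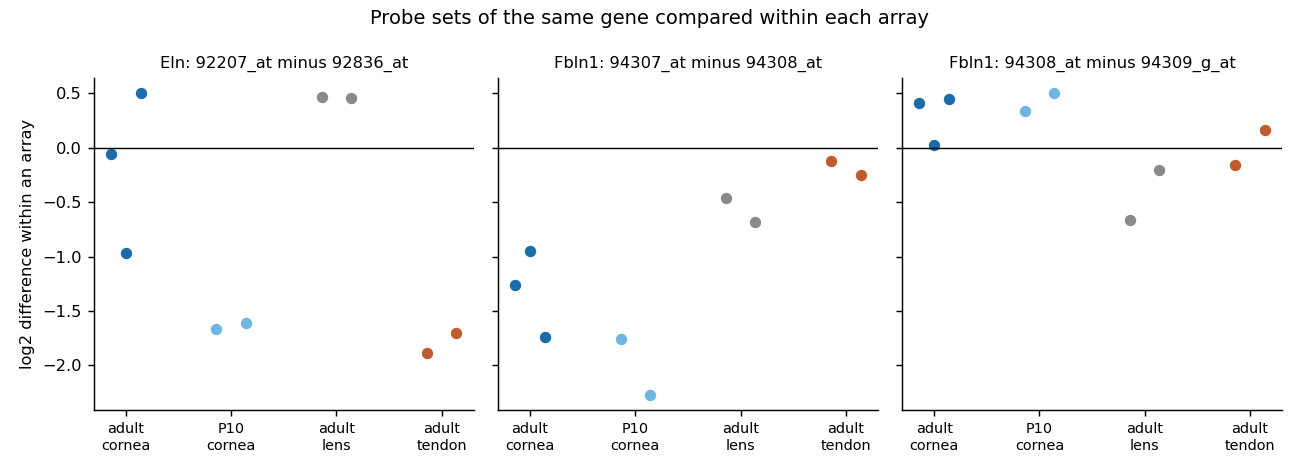
Difference between probe sets of the same gene within each array, in log2 units, for elastin (left) and fibulin-1 (middle and right). Each point is an array. For 94307_at minus 94308_at, P10 cornea is lowest (-1.76 and -2.27) and tendon highest (-0.12 and -0.25).

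Counted over the members, 3 of 7 tested probe sets (Eln 92836_at, Mfap2 and Fbln2) were lower in adult than in P10 cornea and 0 were higher, where 3.88% of all tested probe sets were lower, 0.699% higher and 4.57% called in either direction. Against tendon, 4 of 7 were lower in adult cornea and 0 higher (18.9% and 16.1% of all, 35% in either direction). In P10 cornea 1 of 7 was lower than in tendon and 0 higher (11% and 15.7%, 26.7% in either direction). Against lens, 1 of 7 was higher and 1 lower in adult cornea (27.2% and 24%, 51.2% in either direction), a share below that background. In P10 cornea 3 of 7 were higher than in lens and 0 lower (31.6% and 19.4%, 51% in either direction). Between lens and tendon, 4 of 7 were lower in lens and 0 higher (26.4% and 22.6%, 49% in either direction). The 6 comparisons share arrays, and probe sets of 1 gene are not independent.

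Other genes of the pathway were taken from 7 fixed lists, of whose 93 genes 66 were on the array and 57 were tested. In adult against P10 cornea 11 of the 57 fell and 0 rose (3.88% and 0.699% of all tested probe sets), with a median log2 difference of -0.39, against -0.13 over all tested probe sets. Median centring of the arrays moved every difference between the ages by 0.165, after which Eln (92836_at) and Mfap2 were still called and Fbln2 was not (limma adjusted p = 0.0527). The other counts are given with the shares of all tested probe sets in the same directions. Against tendon, 29 fell and 4 rose in adult cornea (18.9% and 16.1%, median -0.76 against 0.01 for all). There 17 fell and 5 rose in P10 cornea (11% and 15.7%, median -0.24 against 0.13). Against lens, 18 rose and 20 fell in adult cornea (27.2% and 24%, median 0.02 against 0.08). In P10 cornea 20 rose and 8 fell against lens (31.6% and 19.4%, median 0.31 against 0.25). In lens against tendon 10 rose and 28 fell (22.6% and 26.4%, median -0.71 against -0.07). The count between the ages rested on both P10 arrays. Of the 11 calls, 2 were kept without P10 cornea replicate 1 (Ltbp4 and Ctsg) and 2 without P10 cornea replicate 2 (Lox and Ctsg). Of the 22 calls in P10 cornea against tendon, 14 were kept without either tendon array.

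Of the elastic fibre assembly genes, 6 were tested, and Ltbp1, Ltbp4 and Mfap5 were lower in adult than in P10 cornea (3.88% of all tested probe sets). Ltbp1 and Ltbp4 encode proteins that hold latent TGF-beta on microfibrils. Ltbp4 read 152, 261 and 183 in adult cornea, against 612 and 648 in P10 cornea (3.07-fold, limma adjusted p = 0.00348). Leaving out P10 cornea replicate 2 raised that p to 0.0543. Ltbp4 was at 64.6 and 64.7 in lens and 528 and 498 in tendon. Ltbp1 was 2.39-fold lower in adult cornea, at 46.5, 54.8 and 43.0 against 139 and 135 (limma adjusted p = 0.00971, but up to 0.112 without either P10 array).

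Mfap5, a second microfibril-associated glycoprotein, did not have the tissue pattern of Mfap2. It read 35.4, 33.0 and 47.8 in adult cornea, 116 and 121 in P10 cornea, 12.9 and 13.8 in lens, and 326 and 483 in tendon. Lens was the lowest group for Mfap5, 14.1-fold below tendon (limma adjusted p = 7.78e-07), whereas Mfap2 in lens and tendon differed by 0.11 on the log2 scale. The fall of Mfap5 in adult against P10 cornea was 2.48-fold (limma adjusted p = 0.00749, up to 0.099 without either P10 array). Mfap4, Ltbp2 and Ltbp3 were not called between the ages (limma adjusted p = 0.128, 0.707 and 0.804).

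Of the 5 listed lysyl oxidases, which crosslink elastin and collagen, Lox and Loxl1 were on the array. Both fell in adult cornea against P10 cornea and against tendon, as did 3.88% and 18.9% of all tested probe sets. Loxl1, which acts on elastin, read 96.3, 84.8 and 78.7 in adult cornea, 334 and 298 in P10 cornea, 375 and 137 in lens, and 288 and 368 in tendon. The adult corneas were below all other arrays, as for Mfap2. Loxl1 fell 3.23-fold against P10 cornea (limma adjusted p = 0.0199), 2.39-fold against lens (limma adjusted p = 0.0103, but 0.0781 without lens replicate 1) and 3.34-fold against tendon (limma adjusted p = 0.0025). The age call was lost without adult cornea replicate 1 or either P10 array (limma adjusted p up to 0.17). Lox read 646 and 371 in P10 cornea, above all adult corneas (5.54-fold lower in adult cornea, limma adjusted p = 0.00372, but up to 0.122 with a pseudocount of 1 or without P10 cornea replicate 1). It was 23.0-fold lower in adult cornea than in tendon, at 125, 61.7 and 54.1 against 1800.4 and 2418 (limma adjusted p = 4.92e-06), and read -39.2 and 7.55 in lens.

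Among 15 tested ligands of fibulins and fibrillins, Fn1, Bgn, Lamc1 and Lama2 were lower in adult than in P10 cornea and 0 were higher. The shares of all tested probe sets were 3.88% lower and 0.699% higher. Fn1, the fibronectin gene, read 1361, 906 and 768 in adult cornea, against 2443 and 2577 in P10 cornea (2.53-fold, limma adjusted p = 0.00866). The call was lost without either P10 array and in the fit of the corneas only (limma adjusted p up to 0.103). Bgn and Lamc1 were also lost without either P10 array (limma adjusted p up to 0.0974 and 0.168), and Lama2 in 10 of 19 alternatives (limma adjusted p = 0.0365, up to 0.261). Fn1 was at 142 and 134 in lens and 4035 and 4179 in tendon. Its order of means was that of Fbln2 (tendon, P10 cornea, adult cornea, lens), with adult cornea 6.49-fold above lens (limma adjusted p = 6.84e-06). The growth factor, receptor and protease inhibitor lists had 0 calls between the ages in limma's test, of 7, 5 and 9 genes, where 4.57% of all tested probe sets were called.

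Of 13 tested enzymes that can cut elastin, 2 were lower in adult than in P10 cornea (3.88% of all tested probe sets), the cathepsins Ctsk and Ctsg. Ctsk read 132, 101 and 158 in adult cornea, against 393 and 342 in P10 cornea (2.65-fold, limma adjusted p = 0.00651, up to 0.0974 without either P10 array). Ctsg, a protease of mast cells and neutrophils, read -110, 7.72 and 23.1 in adult cornea, against 825 and 798 in P10 cornea (limma adjusted p = 5.43e-05, a call kept in all 19 alternatives). Cela1, named for an elastase, was at 750.0 and 701 in lens against -1.64 to 28.4 in cornea and 34.2 and 33.0 in tendon (limma adjusted p = 3.36e-06 for adult cornea against lens). Of 9 protease inhibitors, 7 were lower and 1 higher in adult cornea than in tendon, where 18.9% of all tested probe sets were lower and 16.1% higher. The 1 higher was A2m, which had the largest difference of the list (log2 6.03, limma adjusted p = 3.75e-07, tendon mean -1.18). Of those lower, Serpina3n differed most (log2 -2.88, limma adjusted p = 3.34e-06). Timp3, a matrix-bound inhibitor of metalloproteinases, was 5.46-fold lower (limma adjusted p = 0.000104), and Cst3, the cystatin C gene, 6.43-fold lower (limma adjusted p = 3.22e-05).

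**Figure D4:**
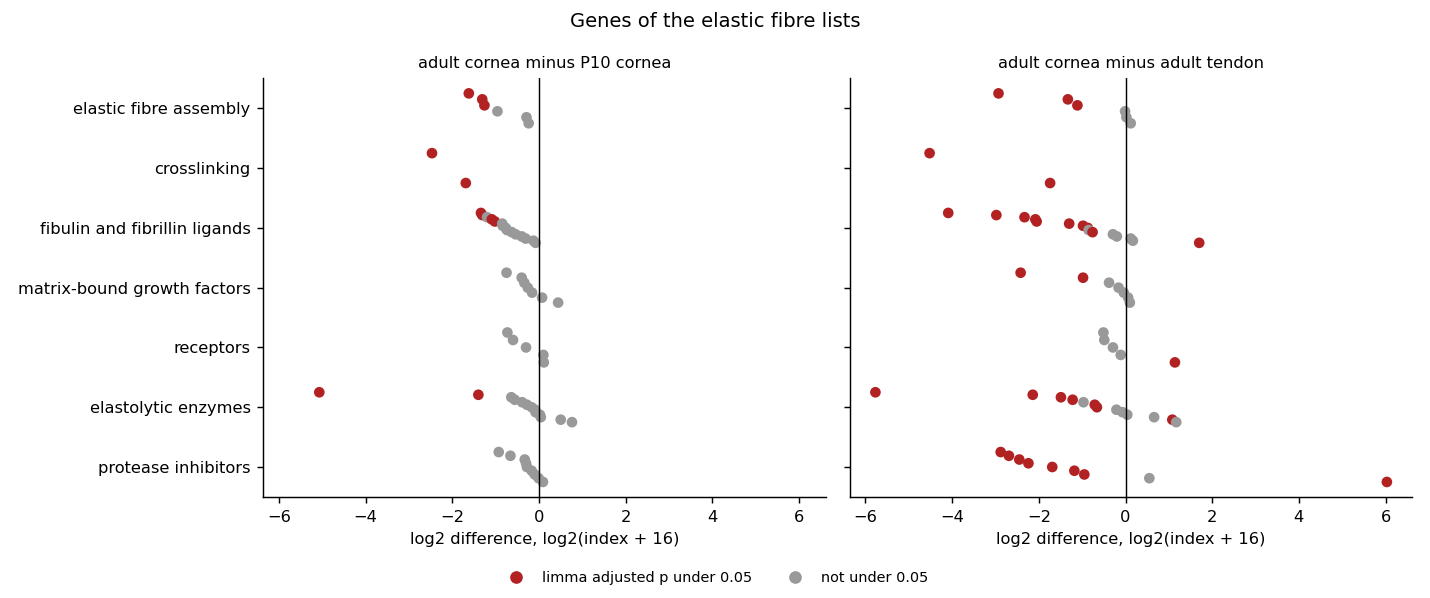
Genes of the 7 elastic fibre lists, each by its brightest probe set on average, as the log2(index + 16) difference of adult cornea from P10 cornea (left) and from tendon (right). Red points have a limma adjusted p under 0.05. Between the ages all 11 red points lie below 0, and against tendon 29 lie below and 4 above.

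Smooth muscle cells, a source of elastin in vessel walls, had 8 measured markers. Of these, 5 (Myh11, Acta2, Tagln, Smtn and Rgs5) were lower on every adult cornea array than on every P10 array, 2 (Cnn1 and Notch3) were higher, and 1 overlapped. The share of all probe sets without such overlap was not counted, so this count has no background beside it. Over all tested probe sets the median log2 difference of adult from P10 cornea was -0.13. Acta2 read 8.60 to 33.9 in adult cornea, 195 and 372 in P10 cornea, 666 and 448 in lens, and 391 and 301 in tendon. Cnn1 read 578 to 1265 in adult cornea, against 315 and 383 in P10 cornea. The summed level of the list was 1475 to 2070 in adult cornea, 1322 and 1744 in P10 cornea, 1319 and 1774 in lens, and 3673 and 3842 in tendon. Of the tendon sums, Des alone made up 2192 and 2418, and it read 30.3 or less on the other arrays. Des and Smtn were at or below 0 in lens.

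Of 8 stromal markers, 5 (Kera, Lum, Dcn, Col5a1 and Cd34) were lower on every adult cornea array than on every P10 array. The other 3 (Aldh3a1, Tkt and Ptgds) overlapped. Col5a1, a fibrillar collagen gene, read 123 to 245 in adult cornea, against 1088 and 755 in P10 cornea. Lum, the lumican gene, read 595 to 1156 in adult cornea, against 2087 and 1524 in P10 cornea. The sum of the 8, at 14940 to 16534 in adult cornea and 19030 and 19341 in P10 cornea, was mostly Aldh3a1 and Tkt, which overlapped between the ages. All 4 pigment cell markers (sums of 503 to 653 in adult cornea and 1246 and 3509 in P10 cornea) and 4 of 8 endothelial markers were lower in adult cornea without overlap, and Pecam1, of the endothelial list, was higher. These counts, too, have no share of all probe sets beside them. The part of these markers in the differences between the ages was not tested.

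The members and their nearest genes were set side by side over the 9 arrays, which fall in 4 groups, so a correlation mostly reflects the group means. Taking the brightest probe set of each gene, Eln and Fbln2 correlated at r = 0.921, Fbln1 and Fbln2 at 0.83, Eln and Fbln1 at 0.634, Eln and Mfap2 at 0.631, Mfap2 and Fbln2 at 0.391 and Mfap2 and Fbln1 at -0.125. The 5 probe sets most like Eln were 2 of Meg3 (r = 0.99 and 0.985), Diablo (0.988), Myl9 (0.981) and P3h3 (0.978). Those most like Mfap2 were Norad (0.983), Htra1 (0.981), Acta2 (0.964), Pfn2 (0.964) and Klrk1 (0.962). For Fbln2 they were Il6st (0.992), Calu (0.981), Ccnd3 (0.98), Igfbp4 (0.979) and Rap1gds1 (0.979), and for Fbln1 (94308_at) Nedd4l (0.993), Gnai1 (0.981), Vmn2r26 (0.979), Fosb (0.979) and Mrpl11 (0.972). Htra1 encodes a secreted serine protease. It read 197, 211 and 163 in adult cornea, against 582 to 977 on the other arrays. Htra1 was picked for its correlation with Mfap2 on these arrays, so their shared tissue pattern follows from that choice.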

How the data were processed

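The deposited values are intensities, 1 linear index for each probe set and array. The authors' design text names Affymetrix Microarray Suite 5.0 and then dChip with an invariant-set normalization, while the submitters' processing notes name MAS5, so it is not settled which program gave the values. From 1.26% to 4.37% of the values of an array were at or below 0. These became 0, and values were analysed as log2(index + 16), a pseudocount of 16. No rescaling was done, since the largest trimmed mean of an array was 1.171 times the smallest (limit 1.25). Without the 66 controls, 8154 probe sets reached the array median on at least 2 of 9 arrays and were tested. Group means were estimated in limma 3.58.1 (R 4.3.3), using every array and a variance trend (residual df 5, prior df 4.933). P-values were two-sided and adjusted in each of 6 comparisons, with a threshold of 0.05. With 2 or 3 arrays a group, precision is limited by their number. The fit was also run on simulated data with independent normal noise, from which no conclusion is drawn here.

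Symbols came from the platform annotation, updated through RefSeq. The members, lists and rules were chosen with earlier results of these data known. Named genes were all members, up to 4 called genes per list and comparison with the largest differences, and the 5 probe sets most correlated with each gene; list genes named as not called were added after their values were seen.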

Additional observations from a re-analysis of the deposited data

How the results depend on the processing

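Member differences were recomputed in 19 settings (pseudocounts of 1 and 64, looser and stricter filters, 3 scalings, the compared groups alone, a replicate block, no variance trend, each array left out) and by the methods' t-test. In the 19 settings 14 of 17 calls held. The exceptions were Fbln2 between the ages and Fbln1 94308_at in both corneas against lens. The cause of the changes was not tested.

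Members called lower in P10 cornea than in tendon numbered 1. There were 3 with a pseudocount of 64 or median centring, 2 with quantile or trimmed mean scaling, 4 with those groups alone, and 1 to 2 with an array left out (2 without either lens array). In adult cornea against lens 1 was higher, but 0 with those groups alone, the replicate block or the methods' t-test, and 0 to 2 with an array left out (0 without lens replicate 2, 2 without lens replicate 1). There 1 was lower, but 2 with the replicate block and 1 to 2 with an array left out (2 without adult cornea replicate 3). In P10 cornea against lens 0 were lower, but 1 with quantile scaling. The methods' t-test took an unadjusted p under 0.05, a 2-fold change and a difference of at least 100. By it 2 members were lower in adult cornea than in tendon and 0 in lens than in tendon, against 4 each. There it called 1028 and 1243 of all 12422 probe sets. Between the ages 2 were lower, and 2 were higher in P10 cornea than in lens, against 3 each (141 and 1058 of all called). After Benjamini-Hochberg adjustment it called 1 member, in adult cornea against tendon, and 46 of all probe sets there. It then called 64 of all in adult cornea against lens and 0 between the ages and where adult cornea was not compared.

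Uncalled log2 differences near 0 changed sign. For Fbln1 94309_g_at, adult against P10 cornea gave 0.071 (quantile), 0.091 (trimmed mean), 0.121 (centring) and -0.197 to 0.115 with an array left out. Adult cornea against lens gave 0.074 (quantile), 0.048 (trimmed mean) and -0.515 to 0.498. P10 cornea against lens gave -0.043 (trimmed mean), -0.168 (centring) and -0.471 to 0.542. For Fbln1 94307_at, adult cornea against lens gave 0.026 (trimmed mean), 0.102 (replicate block) and -0.413 to 0.357. With an array left out, Eln 92207_at in P10 cornea against lens gave -0.227 to 0.002, and Mfap2 in P10 cornea against tendon -0.023 to 0.009.

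Nothing in the labels makes a replicate number a pairing, and no group pair has over 2 shared numbers. Deviations of same-numbered arrays correlated between -0.363 and 0.201 over the 6 comparisons. In P10 cornea against lens the correlation was 0.165, which is equal for both numbers by construction where both groups have 2 arrays. With the replicate block, limma's adjusted p was 0.0643 for Fbln2 between the ages, 0.0517 for Fbln1 94308_at in adult cornea against lens, and 0.00807 and 0.00444 for Eln 92207_at in adult cornea against lens and tendon. Of all probe sets 373 were called between the ages, but 79 without P10 cornea replicate 2. In P10 cornea against tendon 2174 were called, but 3832 with those groups alone.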
